A study of Mus musculus with 15 samples.

Results

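The genes described here encode the nuclear part of respiratory complex I, the NADH dehydrogenase of the inner mitochondrial membrane, in the mouse heart. They were taken as every row of the expression table whose Ensembl identifier has a protein-coding mouse symbol that starts with Nduf, with pseudogenes left out. That rule gave 46 genes of 36653 identifiers, made up of 36 subunits, 8 assembly factors and the pair Ndufa4 and Ndufa4l2. Ventricle RNA came from mice of the C57BL/6 strain, wild type and 10 weeks old, and there were 3 groups with 5 libraries each. Vehicle mice received saline. AngII mice carried a subcutaneous pump releasing angiotensin II, a blood-pressure-raising peptide hormone, at 1000 ng/kg/min. AngII plus OA mice carried the same pump and were also given OA, the fatty acid oleic acid. Its dose was 160 mg/kg, and each mouse received 0.3 mL a day. The 3 groups do not include one with oleic acid but no pump, and the length of treatment is not given in the sources used here. The series asks whether oleic acid alters the remodelling of the heart under angiotensin II.

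Complex I takes electrons from NADH, passes them along a flavin and a chain of iron-sulfur clusters to ubiquinone, and pumps protons with the energy released. A matrix arm holds the redox centres and a membrane arm holds the pumps. The catalytic core is built from nuclear genes in the matrix arm and from mitochondrially encoded ND proteins in the membrane arm. Accessory subunits surround that core, and assembly factors help to build the complex without staying in it. Heart muscle is rich in mitochondria, and its contraction depends on ATP made by the respiratory chain. Ndufa4 was first described as a complex I subunit and is now assigned to cytochrome c oxidase, and Ndufa4l2 is its hypoxia-induced relative. Both meet the naming rule and are given separately.

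The promoters of these genes are known for binding sites of regulators of mitochondrial genes, and the stretches below show the matches found in 6 of the members. RefSeq windows from 250 bases before to 50 bases after a gene's start were at hand for 40 of the 46 genes (42 windows, build GRCm38.p6). The core of the NRF-1 motif, GCGCATGC on either strand, lay in 11.9% of the member windows (5 of 42) and in 2.71% of all 32851 windows. The YY1 motif AAGATGG lay in 19.0% (8 of 42) against 6.34% of all windows. The ETS motif CCGGAAG, bound by GABP (also called NRF-2), lay in 14.3% (6 of 42) against 8.86%, and the half-site of the estrogen-related receptors, AAGGTCA, in 7.14% (3 of 42) against 4.72%. TATAAA, the core of the TATA box, lay in 11.9% (5 of 42) against 13.6%. Of these motifs NRF-1 and YY1 had the widest gap between member windows and all windows. All YY1 matches in member windows lay after the start, at positions 10 to 38 on the forward strand, so the sequences below show none. The median GC content was 59.3% in member windows and 52.7% in all windows, and how much of the gap goes with base composition was not tested. A match is a string of letters and not a measured binding site. The sequences below run 5′ to 3′ on the gene's own strand over the 120 bases before the start, with motif matches in capitals. Each shows a match upstream of the start, in Ndufa11, Ndufa6 and Ndufaf4 for NRF-1, in Ndufaf1 and Ndufs3 for ETS, and in Ndufb4 for the receptor half-site.
Ndufa11 (membrane arm accessory subunit, chr17:56717642-56717761, plus strand): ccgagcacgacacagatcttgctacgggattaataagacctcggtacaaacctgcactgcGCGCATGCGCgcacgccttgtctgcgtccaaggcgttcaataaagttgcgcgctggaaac
Ndufa6 (matrix arm accessory subunit, chr15:82354292-82354411, minus strand): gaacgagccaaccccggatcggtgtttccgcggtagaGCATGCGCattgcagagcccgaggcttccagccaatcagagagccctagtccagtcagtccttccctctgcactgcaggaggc
Ndufaf4 (assembly factor, chr4:24897963-24898082, plus strand): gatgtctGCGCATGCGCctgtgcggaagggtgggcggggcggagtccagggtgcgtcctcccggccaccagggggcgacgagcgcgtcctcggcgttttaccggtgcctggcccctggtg
Ndufaf1 (assembly factor, chr2:119662835-119662954, minus strand): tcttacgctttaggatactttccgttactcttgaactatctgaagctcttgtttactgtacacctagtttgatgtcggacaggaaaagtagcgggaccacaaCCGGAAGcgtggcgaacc
Ndufs3 (core subunit, chr2:90904722-90904841, minus strand): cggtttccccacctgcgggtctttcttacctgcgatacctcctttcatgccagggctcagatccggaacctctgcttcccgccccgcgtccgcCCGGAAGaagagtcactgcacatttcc
Ndufb4 (membrane arm accessory subunit, chr16:37654369-37654488, minus strand): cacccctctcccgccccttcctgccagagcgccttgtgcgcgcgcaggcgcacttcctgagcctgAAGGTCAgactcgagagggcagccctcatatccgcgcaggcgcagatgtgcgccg
In Ndufa11 and Ndufaf4 the capitals span the palindrome that reads as the NRF-1 core on both strands, at positions -60 and -113 before the start. Ndufa6 carries the motif on the reverse strand at -83. Ndufaf4 has another copy that begins at its start site, and in Ndufaf5 the motif lies at position 16 after the start. The ETS match of Ndufaf1 lies at -18 and that of Ndufs3 at -27, and the receptor half-site of Ndufb4 at -55.

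Values are in FPKM, fragments scaled to the gene's length in kilobases and to the library's total in units of M fragments. The library totals behind them were 24.5 to 28.3 M fragments. Whole reads could be recovered for every member, and 42 of the 46 had at least 300 reads in each of the 15 libraries. The markers of heart muscle were abundant throughout, as their summed level lay between 16884 and 37048 FPKM over 10 cardiomyocyte genes. AngII replicate 2 stood apart from the other libraries. It had the lowest cardiomyocyte sum and, over 5 atrial muscle markers, 3093 FPKM against 17.9 to 761 in the other 14 libraries. Its sums were also the highest of the 15 for 7 adipocyte markers (351 FPKM) and 4 mesothelial markers (79.5 FPKM). The same held for 4 B cell markers (53.1 FPKM) and 7 fibroblast markers (1178 FPKM). In RNA from whole tissue, fewer cells of a type and less RNA per cell cannot be told apart.

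Complex I transcripts were among the abundant messages of the ventricle. The 46 genes together took 2.90% to 4.72% of the FPKM of nuclear genes in a library, and 28 of them had a vehicle mean above 100 FPKM. Ndufb9, a subunit of the distal membrane arm, led with 1015 FPKM ± 214 (SD, n = 5). It stood at 1033, 1270.1, 936, 701 and 1132 FPKM in vehicle replicates 1 to 5. Ndufa4 came next in order (808 FPKM ± 85.0), then Ndufa6, an accessory subunit of the matrix arm (582 FPKM ± 214). Neighbours in this order overlapped between mice, since the vehicle values ran from 701 to 1270.1 FPKM for Ndufb9, from 676 to 892 for Ndufa4 and from 280.3 to 848 for Ndufa6. All 46 genes passed the filter for testing, a mean of at least 0.5 FPKM over the 15 libraries.

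The 7 nuclear core subunits, which carry the flavin and the iron-sulfur clusters, had a median vehicle level of 244 FPKM. Ndufv2, which holds an iron-sulfur cluster next to the NADH site, stood at 314 FPKM ± 24.4, and Ndufv1, which binds NADH and the flavin, at 189 FPKM ± 29.2. Ndufs1, the largest subunit of the matrix arm and the holder of several clusters, was the lowest at 44.6 FPKM ± 14.2.

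In FPKM, accessory subunits had similar middles wherever they sit. The medians were 186 FPKM over 9 genes of the matrix arm, 211 FPKM over 9 genes of the proximal membrane arm and 194 FPKM over 10 genes of the distal membrane arm. Ndufs4, a matrix arm subunit whose loss causes Leigh-like disease in people and mice, stood at 186 FPKM ± 30.7. Ndufa1, a small single-span membrane protein, led the proximal membrane arm at 449 FPKM ± 166. Ndufc2, another small membrane subunit, stood at 211 FPKM ± 21.7. Ndufb4, of the distal arm, stood at 291 FPKM ± 38.3.

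The assembly factors were far less abundant than the subunits. Their median was 16.0 FPKM against 200.2 FPKM for the 36 subunits, a ratio of 12.5. Ndufaf8 was the highest of the 8 factors (39.6 FPKM ± 9.0) and Ndufaf7, a methyltransferase, the lowest (10.1 FPKM ± 0.838). Ndufaf1, a factor for the membrane arm, stood at 25.1 FPKM ± 4.66 and Ndufaf5 at 11.7 FPKM ± 0.695. Of the 36 subunits 34 exceeded every assembly factor, and the exceptions were Ndufab1 and Ndufb2. The plot of levels by role shows this step, with the factors in a band at the right.

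**Figure D1:**
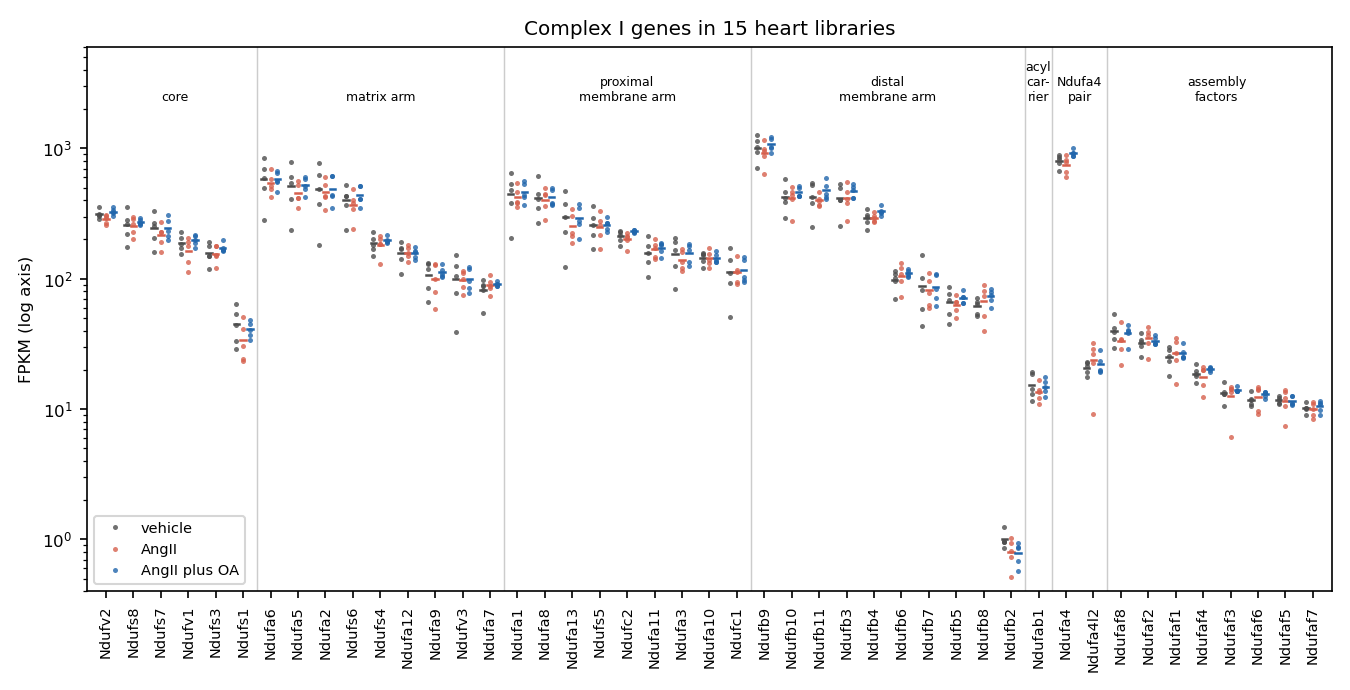
FPKM on a log axis of 45 of the 46 genes, grouped by role, with 1 point per library and a bar at each group mean (5 vehicle, 5 AngII and 5 AngII plus OA libraries). The assembly factors lie between 6.11 and 53.2 FPKM in every library, and the 3 groups overlap for nearly every gene.

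Ndufab1, the mitochondrial acyl carrier protein that also serves fatty acid synthesis, had 15.4 FPKM ± 3.48 in vehicle hearts, and Ndufb2 had 0.999 FPKM ± 0.144. Both levels depend on the length by which reads are divided. The FPKM of these genes fit the summed length of all annotated exons, which is 6883 bases for Ndufab1 and 5628 for Ndufb2, while their principal coding transcripts are 1416 and 455 bases long. Divided by the principal transcript, the vehicle level was 74.6 reads per M and kilobase for Ndufab1 and 12.4 for Ndufb2. Ndufab1 then lay above every assembly factor, so that 35 of 36 subunits did, and the ratio of the medians became 16.7. Ndufb2 remained the lowest of all 46 genes, on 76 to 172 reads per library.

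Other members were moved by the same choice of length. For 8 genes the length behind FPKM was more than 3 times that of the principal transcript. Ndufb7, a distal membrane arm subunit, went from rank 31 to rank 5 and Ndufa11, of the proximal membrane arm, from rank 22 to rank 3. Ndufs1 stood at 139 reads per M and kilobase on its principal transcript of 2590 bases, against 8086 bases in FPKM. Ndufa4 led on the principal length (1828), ahead of Ndufb9 (938). The medians of the accessory subunits, similar in FPKM, lay farther apart on this length. They were 265 reads per M and kilobase for the matrix arm, 308 for the proximal and 384 for the distal membrane arm. The ratio of FPKM between libraries of the same gene is not touched by this choice. The differences given below are taken after a constant is added to FPKM, so their size does depend on the length, mostly for genes of low FPKM. Differences on the principal length were not tested.

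**Figure D2:**
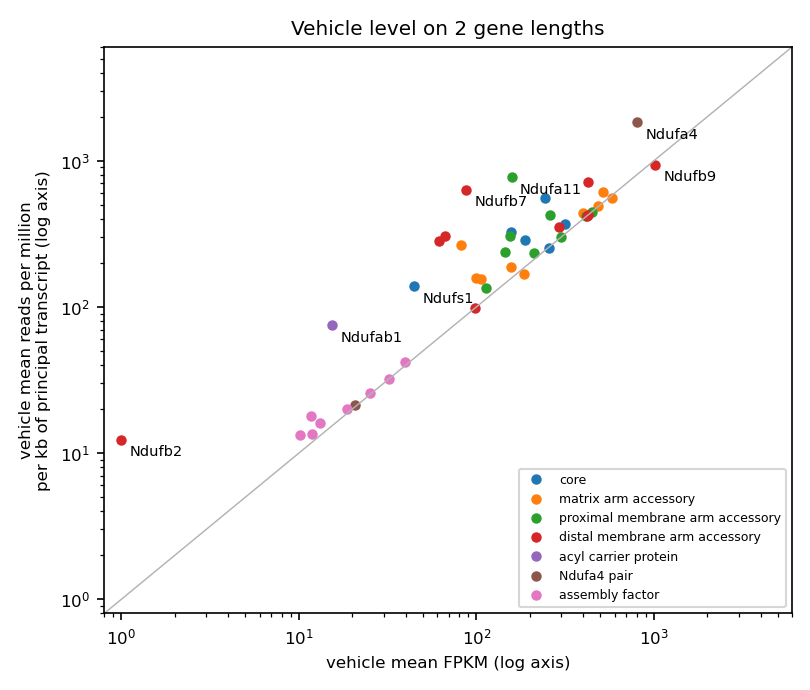
Vehicle mean FPKM (x axis, log) against vehicle mean reads per M and kilobase of the principal coding transcript (y axis, log) for 45 of the 46 genes, coloured by role, with a line where both are equal. Ndufb2, Ndufab1, Ndufb7 and Ndufa11 lie far above the line.

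Reads shared with other loci limit the level of some members. For 16 of the 46 genes more than 5% of the 50-base words of their transcripts also occur in transcripts of another gene, on either strand, and for 21 genes none do. The share of the principal transcript is highest for Ndufs5, at 41.2%. It is 39.7% for Ndufs3, 37.0% for Ndufb4, 34.1% for Ndufb6, 33.5% for Ndufb2 and 31.2% for Ndufab1. Ndufb4 shares words with Ndufb4c, a processed pseudogene listed at 95.6 FPKM ± 13.8 in vehicle hearts. Ndufab1-ps, a pseudogene of the acyl carrier protein, was listed at 4.76 FPKM ± 1.40. Such pseudogenes are not members, and how the authors assigned shared reads is not given in the sources used here.

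The spread between mice of 1 group was wider at the median of these genes than at the median of all genes. The within-group SD had a median of 0.288 on the log2(FPKM + 1) scale over the 46 members, 0.226 over all 13121 genes tested and 0.247 over the 3483 genes with a mean of at least 10 FPKM. Among vehicle hearts the coefficient of variation ran from 5.94% for Ndufaf5 to 48.4% for Ndufb7, with a median of 21.9%. The median was 20.4% among AngII hearts and 10.4% among AngII plus OA hearts. Whether the spread itself differed between the groups was not tested.

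Many subunits moved together from mouse to mouse. Vehicle replicate 2 was the highest vehicle library for 33 of the 46 genes and the highest of all 15 for 22. Vehicle replicate 4 was the lowest vehicle library for 33 genes and the lowest of all 15 for 21. These ranks were counted for the members only, so no share over all genes stands beside them. Ndufa2, a matrix arm accessory subunit, shows the range with 484, 767, 375, 181 and 624 FPKM in vehicle replicates 1 to 5. Ndufb7 stood at 82.0, 152, 58.6, 43.2 and 101 FPKM in the same libraries. Ndufs1 ran the other way, with 43.8, 29.0, 53.2, 63.8 and 33.4 FPKM. For the first pair replicate 2 was high and replicate 4 low, and for Ndufs1 replicate 4 was the highest and replicate 2 the lowest of the vehicle hearts.

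Vehicle replicate 4 was low for most members but not for all. Against the mean of the other 4 vehicle libraries, 38 of 46 genes were lower, with a median difference of -0.54 on the log2(FPKM + 1) scale. Over all genes tested the median was 0.0004, and 49.95% of them were lower. The largest negative differences were those of Ndufa2 (-1.58), Ndufv3 (-1.49), Ndufa13 (-1.42) and Ndufa1 (-1.28), all accessory subunits. The largest positive ones were those of Ndufs1 (0.70), Ndufaf4 (0.29), Ndufa9 (0.26) and Ndufaf1 (0.25). Across the 46 genes the difference had a Spearman rho of 0.525 with principal transcript length, -0.527 with vehicle FPKM and -0.313 with GC content. These are descriptions across genes that share the same libraries. The mitochondrially encoded mt-Nd3 had 687 FPKM in vehicle replicate 4 and 2894 in vehicle replicate 2, its lowest and highest vehicle values. The other mitochondrially encoded subunits did not all follow it. In vehicle replicate 4, mt-Nd4 was at its lowest vehicle value (15815 FPKM), while mt-Nd2 (25257 FPKM) and mt-Nd5 (7685 FPKM) were at their highest. The summed level of these subunits was 100614 FPKM there, inside the vehicle range of 88449 to 111504 FPKM. The cardiomyocyte sum of vehicle replicate 4 was 30102 FPKM, within the 28006 to 34571 of the other vehicle hearts.

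AngII replicate 2 was low in all members. Each of the 46 genes was below the mean of the other 4 AngII libraries, with a median difference of -0.42 against -0.13 over all genes tested. Of all genes tested 60.2% were lower. AngII replicate 2 was the lowest of the 5 AngII libraries for 36 members, a rank also counted for the members only. The largest differences were those of Ndufa4l2 (-1.47), Ndufaf3 (-1.10), Ndufaf1 (-0.88) and Ndufa9 (-0.85). Its cardiomyocyte marker sum was 16884 FPKM against 27815 to 32108 in the other AngII hearts, and the part of the marker difference in the low member levels was not tested. Across its members the difference had a Spearman rho of -0.135 with transcript length, against 0.525 in vehicle replicate 4.

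**Figure D3:**
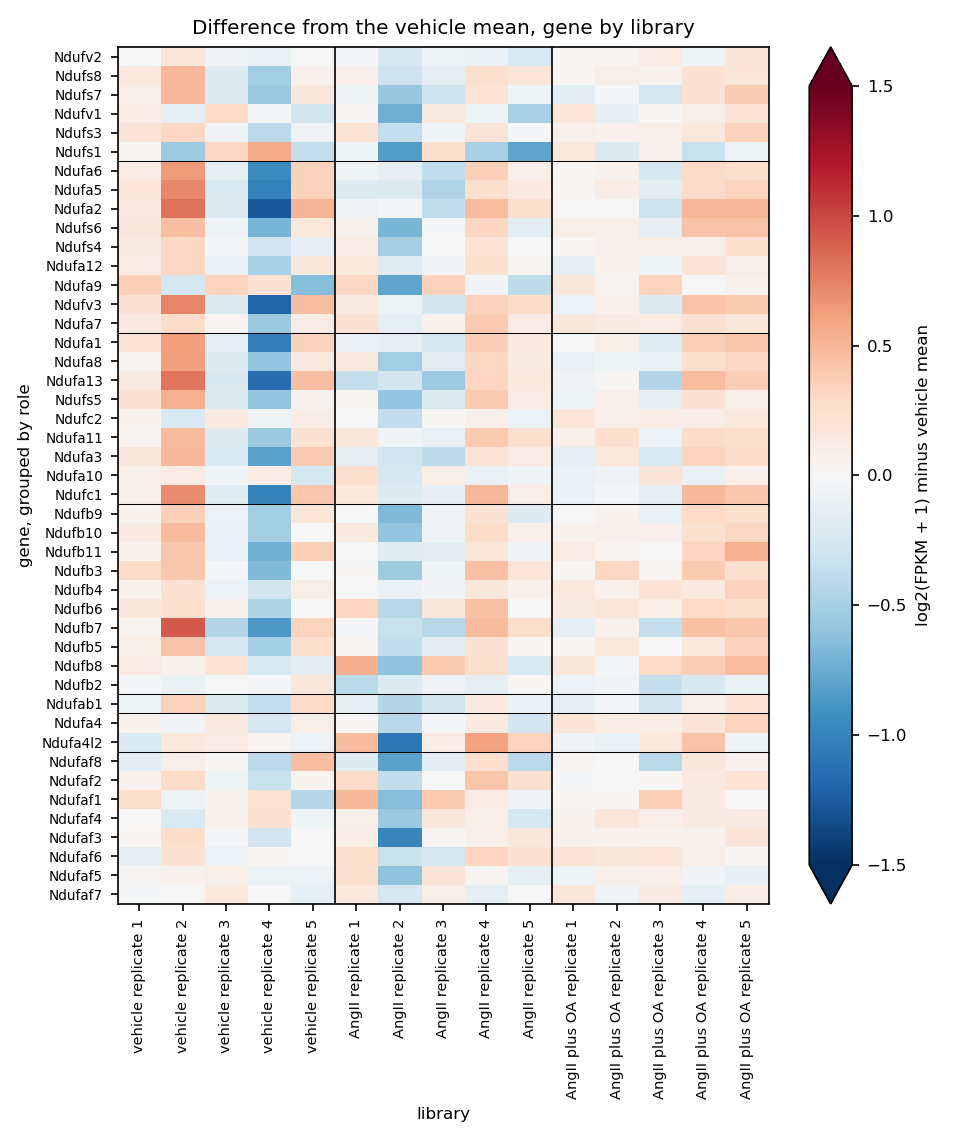
Difference of 45 of the 46 genes (rows, grouped by role) in each of the 15 libraries (columns) from their vehicle means, on the log2(FPKM + 1) scale; red is higher and blue lower. Vehicle replicates 2 and 4 run opposite ways for most subunits, AngII replicate 2 is pale to dark blue in most rows, and Ndufs1 goes against most rows in vehicle replicate 4.

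The median of the members in each library sums this up. It lay from -0.43 to 0.31 among vehicle hearts, from -0.37 to 0.23 among AngII hearts and from 0.02 to 0.24 among AngII plus OA hearts, relative to the vehicle mean of each gene. The SDs of these medians were 0.275, 0.221 and 0.105. The groups overlap, and the AngII plus OA hearts all lie inside the range of the vehicle hearts.

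**Figure D4:**
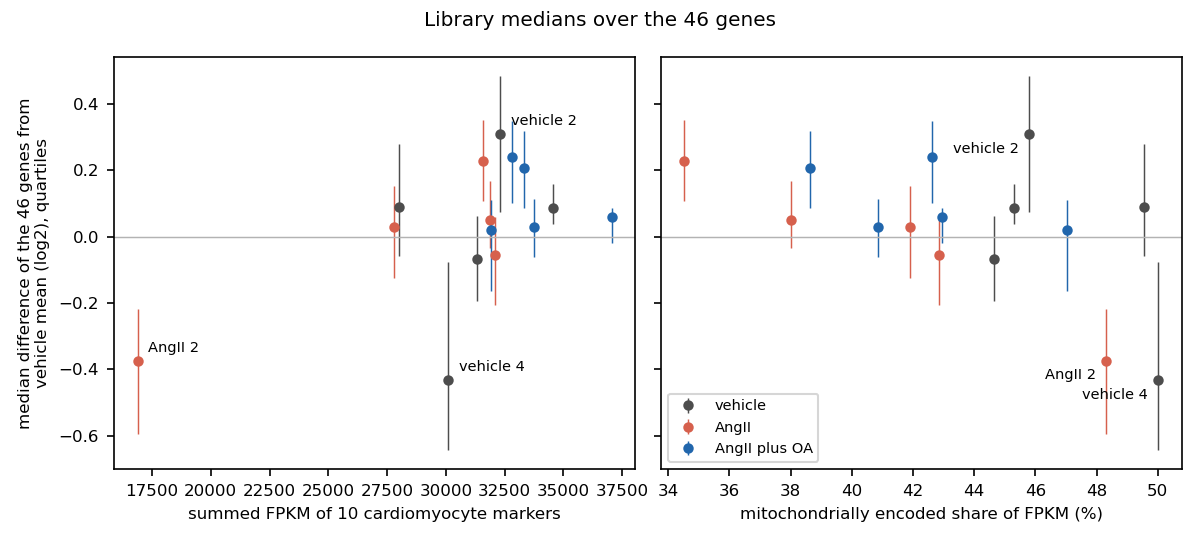
Median difference of the 46 genes from their vehicle means (y axis, log2, with quartiles) in each library, against the summed FPKM of 10 cardiomyocyte markers (left) and the mitochondrially encoded share of FPKM (right). AngII replicate 2, at 16884 FPKM of markers and vehicle replicate 4 have the lowest medians, and the other 13 libraries lie between -0.07 and 0.31.

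Angiotensin II against vehicle asks what the pump did. No member was called, that is, none passed an adjusted p of 0.05 (limma, Benjamini-Hochberg), while 197 of the 13121 genes did (1.50%). At an unadjusted p under 0.05 there were 0 members against 16.6% of all genes, and 0 members had AngII and vehicle libraries that did not overlap, against 3.80% of all genes. The member differences ran from -0.38 to 0.13 on the log2(FPKM + 1) scale with a median of -0.03, and 30 of 46 were negative. Over all genes the median was 0.07. Every member's 95% interval lay within 1 log2 unit either side of 0, and 36 intervals lay within 0.585. Far above 1 FPKM these bounds are close to a doubling or halving and to a change of about 1.5-fold. For Ndufb2, at 0.999 FPKM in vehicle hearts, the same bounds stand for larger changes in FPKM.

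The core subunits had a median difference of -0.16, and 6 of the 7 were lower in AngII hearts. The median was -0.03 over the matrix arm accessory subunits, -0.02 over those of either membrane arm region and -0.04 over the assembly factors.

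Ndufs1 had the largest negative difference of any member, -0.38 (SE 0.23; limma adjusted p = 0.422). Its AngII values were 41.1, 23.5, 51.0, 30.4 and 24.4 FPKM, against the vehicle values above. Of the AngII hearts only replicates 2 and 5 lay outside the vehicle range. Ndufb2 had a difference below 0 as well (-0.15, SE 0.10; limma adjusted p = 0.445), at a level of 0.802 FPKM ± 0.198 in AngII hearts, and -0.09 without AngII replicate 1. Ndufv1 had a difference of -0.22 (SE 0.16; limma adjusted p = 0.525), from 189 FPKM ± 29.2 to 164 FPKM ± 39.7, and of -0.09 without AngII replicate 2.

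Single libraries set the middle of this comparison. Without AngII replicate 2 the member median was 0.06 with 31 of 46 genes higher, and without vehicle replicate 2 it was 0.06 with 30 higher. Without vehicle replicate 4 it was -0.16 with 40 of 46 lower. With AngII replicate 2 and vehicle replicate 4 both left out it was -0.05, with 15 higher, a choice made after the data had been seen. The core subunits kept a negative median in each of the fits without AngII replicate 2, without vehicle replicate 4 and without both (-0.09, -0.20 and -0.10), with 5, 7 and 7 of 7 genes lower. The matrix arm accessory subunits had a median of 0.07 without AngII replicate 2, -0.22 without vehicle replicate 4 and -0.12 without both, below the core in the last 2 fits. The assembly factors had medians of 0.10, -0.03 and 0.07 in the same fits. Ndufs1 moved to -0.13 without both libraries.

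Ndufa4l2, which restrains complex I activity under low oxygen, was the member that AngII replicate 2 set farthest below its group. It stood at 17.5, 23.2, 22.6, 21.4 and 19.4 FPKM in vehicle hearts and at 29.1, 9.23, 22.5, 32.0 and 26.4 FPKM in AngII hearts. AngII replicates 1, 4 and 5 were above every vehicle heart and replicate 2 was below every one. The difference was 0.09 (SE 0.25; limma adjusted p = 0.892) with that library and 0.38 (SE 0.13; limma adjusted p = 0.141) without it. In AngII plus OA hearts it was 20.0, 19.1, 23.2, 28.3 and 19.7 FPKM, where replicate 4 was above every vehicle heart and replicate 3 was level with the highest of them.

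Oleic acid added to angiotensin II gave the second comparison, which shares the AngII hearts with the first and the AngII plus OA hearts with the third. No member was called, and 0 of 13121 genes were (0%). At an unadjusted p under 0.05, limma gave 866 genes (6.60%) and 1 member, Ndufa4. The member differences, AngII plus OA minus AngII, ran from -0.04 to 0.31 with a median of 0.15, and 42 of 46 were positive. Over all genes the median was -0.05. All 46 intervals lay within 1 log2 unit of 0, and 27 within 0.585.

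Ndufa4 stood at 816, 604, 788, 886 and 659 FPKM in AngII hearts and at 922, 870.4, 871, 922 and 1009.6 FPKM in AngII plus OA hearts. AngII replicate 4 lay above 2 of the AngII plus OA hearts and the other 4 AngII hearts lay below all of them. The difference was 0.30 (SE 0.12; limma adjusted p = 0.737) and 0.23 without AngII replicate 2. Ndufv2 was second, at 306, 260.3, 301, 292 and 268 FPKM in AngII hearts and 318, 323, 339, 300.5 and 358 FPKM in AngII plus OA hearts. Its groups overlapped through AngII plus OA replicate 4, and the difference was 0.20 (SE 0.09; limma adjusted p = 0.737).

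Ndufc2 was the 1 member of 46 whose groups did not overlap here, against 1.27% of all genes. Its AngII values were 210.0, 163, 213, 223 and 199 FPKM and its AngII plus OA values 239, 224, 229.5, 228 and 235 FPKM. The lowest AngII plus OA heart was just above the highest AngII heart. The difference was 0.21 (SE 0.11; limma adjusted p = 0.737), and 0.13 without AngII replicate 2.

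By role, all 7 core subunits and all 9 proximal membrane arm subunits were higher in AngII plus OA hearts, with medians of 0.20 and 0.09. Of the 9 matrix arm accessory subunits 8 were higher (median 0.10), of the 10 distal membrane arm subunits 9 (0.17), and of the 8 assembly factors 7 (0.08). The direction is shared by genes that vary together between mice, so the counts are not independent evidence. Without AngII replicate 2 the member median was 0.06 with 31 of 46 higher, the core median was 0.09 with 7 of 7 higher, and the proximal membrane arm median was -0.02 with 4 of 9 higher. The matrix arm median was then 0.06 with 7 of 9 higher, the distal membrane arm median 0.05 with 8 of 10 higher, and the assembly factor median -0.01 with 3 of 8 higher. The cardiomyocyte markers were higher in AngII plus OA hearts for 10 of 10 genes (median 0.27, 0 called), their sum lay between 31928 and 37048 FPKM against 16884 to 32108 in AngII hearts, and the part of these in the member differences was not tested.

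Angiotensin II plus oleic acid against vehicle gave no called member, and 0 of 13121 genes were called (0%). At an unadjusted p under 0.05 there were 0 members against 3.36% of all genes (441 by limma), and 0 members had groups that did not overlap against 0.838%. The differences ran from -0.16 to 0.25 with a median of 0.11, and 40 of 46 were positive, beside a median of 0.02 over all genes. The interval lay within 0.585 for 33 members and within 1 for all 46. Without vehicle replicate 4 the median was 0.01 with 25 of 46 higher, and with FPKM rescaled to leave out mitochondrially encoded genes it was 0.01 with 24 higher.

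Ndufb4 had the smallest p of that comparison. It stood at 299.998, 339.9, 271, 238 and 306 FPKM in vehicle hearts and at 323, 303, 333, 321 and 368 FPKM in AngII plus OA hearts. Only AngII plus OA replicate 5 was above every vehicle heart. The difference was 0.18 (SE 0.11; limma adjusted p = 1.0), and 0.12 without vehicle replicate 4. Ndufb2 was second (-0.16, SE 0.10; limma adjusted p = 1.0), at 0.786 FPKM ± 0.154, and Ndufa4 followed (0.19, SE 0.12; limma adjusted p = 1.0). Ndufb8, of the distal membrane arm, was chosen after its values were seen as the largest difference (0.25, SE 0.19; limma adjusted p = 1.0).

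**Figure D5:**
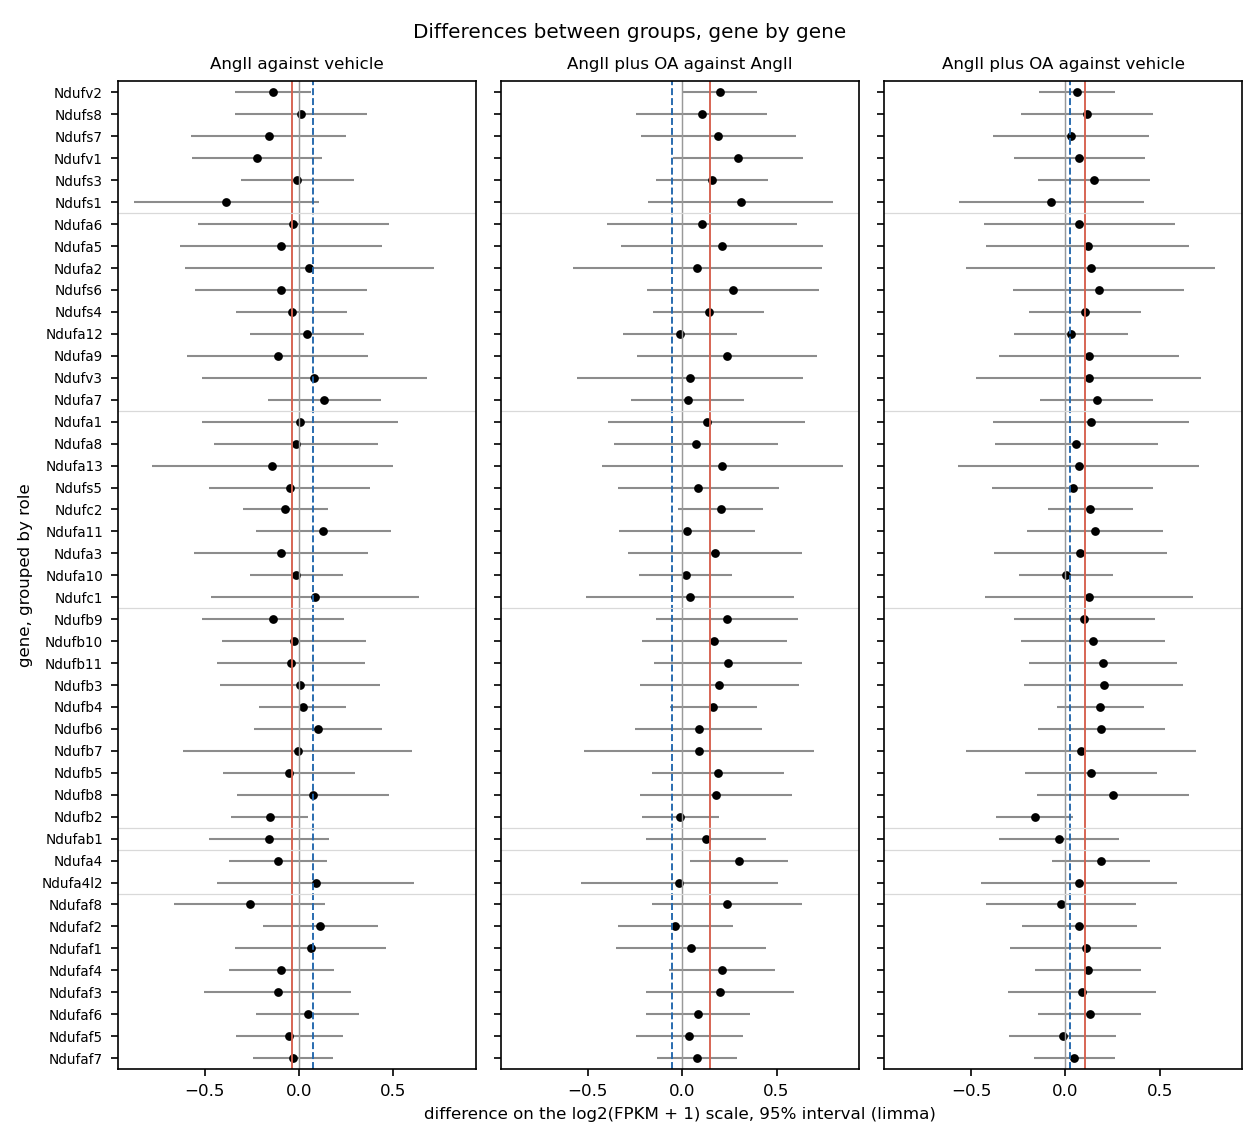
Difference of 45 of the 46 genes (rows, grouped by role) on the log2(FPKM + 1) scale, each with its 95% interval from limma, in the 3 comparisons; the solid red line is the median of the 46 genes and the dashed blue line the median of all 13121 genes. The medians of members and of all genes are -0.03 and 0.07, 0.15 and -0.05, and 0.11 and 0.02, and most intervals include 0.

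The remaining members that were followed in every comparison did not pass the test in any of them. Ndufs4 stood at 186 FPKM ± 30.7 in vehicle, 182 FPKM ± 31.1 in AngII and 198 FPKM ± 11.4 in AngII plus OA hearts. Ndufab1 stood at 15.4 FPKM ± 3.48, 13.5 FPKM ± 2.23 and 14.8 FPKM ± 2.02. Ndufaf1 stood at 25.1 FPKM ± 4.66, 26.8 FPKM ± 7.71 and 26.8 FPKM ± 3.08. Ndufaf8, with the largest negative difference among the assembly factors in AngII against vehicle (-0.26, SE 0.19; limma adjusted p = 0.513), stood at 39.6 FPKM ± 9.0, 33.1 FPKM ± 8.93 and 38.4 FPKM ± 5.60. Without AngII replicate 2 its difference was -0.13.

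Other assembly factors of complex I, which do not bear the Nduf name, gave 0 called of 12 tested in each of the 3 comparisons. Their medians were -0.10, 0.11 and -0.01. The most abundant were Tmem70, with 46.2 FPKM in vehicle and 41.2 FPKM in AngII hearts, and Dmac1, with 32.8 and 36.3 FPKM. The lowest were Nubpl, with 1.51 FPKM in vehicle hearts, and Acad9, with 1.74 FPKM, named after their values were seen and below every Ndufaf gene.

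The mitochondrially encoded subunits of complex I were far more abundant and also gave 0 called of 7 in each comparison. Without mt-Nd4l, which passed the filter through 1 library, the median difference over the other 6 was -0.18 in AngII against vehicle, with 5 of 6 lower, then 0.11 in AngII plus OA against AngII and -0.10 in AngII plus OA against vehicle. mt-Nd1, a core subunit of the proximal membrane arm, had a mean of 39127 FPKM in vehicle, 31008 in AngII and 35077 in AngII plus OA hearts, and mt-Nd2 22267, 19143 and 19741 FPKM. mt-Nd4l was listed at 10.6 FPKM in vehicle replicate 2 and at or below 0.274 FPKM in the other libraries, while its overlapping neighbour mt-Nd4 had a vehicle mean of 20903 FPKM, so its difference is not read.

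All mitochondrially encoded genes together made up 47.1% ± 2.52 of total FPKM in the vehicle group, 41.1% ± 5.2 in hearts with AngII alone and 42.4% ± 3.10 in those with both agents (SD, n = 5). None of the 3 differences passed after adjustment over the 3 comparisons (exact permutation tests, 2-sided; AngII against vehicle adjusted p = 0.0952, AngII plus OA against vehicle 0.0952, AngII plus OA against AngII 0.651; the smallest unadjusted p for 5 against 5 is 0.00794). Before adjustment the exact permutation p was 0.0635 for AngII against vehicle and 0.0397 for AngII plus OA against vehicle. Whether a difference passed turned on single libraries. A left-out library leaves fewer arrangements, so the smallest possible p is then larger than for 5 against 5. Without AngII replicate 2 the AngII difference was -7.74 percentage points (exact permutation adjusted p = 0.0476), and without AngII plus OA replicate 3 the difference of that group from vehicle was -5.79 points (exact permutation adjusted p = 0.0476). These transcripts are part of the FPKM total, so their share bears on the FPKM of nuclear members. With FPKM rescaled without them, the member median was -0.12 in AngII against vehicle, 0.14 in AngII plus OA against AngII and 0.01 in AngII plus OA against vehicle.

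Nuclear subunits of the other respiratory complexes had 0 called genes in all 3 comparisons. In AngII against vehicle the medians were -0.25 over the 4 genes of complex II, -0.06 over 9 of complex III, -0.02 over 13 of complex IV and -0.07 over 14 of complex V. In AngII plus OA against AngII they were 0.28, 0.21, 0.18 and 0.21, with 4 of 4, 9 of 9, 11 of 13 and 14 of 14 genes higher. In AngII plus OA against vehicle they were 0.03, 0.11, 0.16 and 0.12. The complex I members, at -0.03, 0.15 and 0.11, had medians of the same signs as the other complexes, and no test sets them apart. The most abundant genes were Sdhb of complex II (386 FPKM in vehicle), Uqcr11 (592 FPKM) and Uqcr10 (591 FPKM) of complex III, the muscle isoforms Cox6a2 (3271 FPKM) and Cox7a1 (1387 FPKM) of complex IV, and Atp5a1 (887 FPKM) and Atp5h (876 FPKM) of complex V.

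Among 14 regulators of mitochondrial genes, 1 fell in AngII against vehicle and 0 passed in the other comparisons. Ppargc1b encodes PGC-1beta, a coactivator of the estrogen-related receptors and NRF-1. It stood at 1.48, 2.07, 2.22, 2.08 and 2.0 FPKM in vehicle hearts and at 0.787, 0.733, 1.68, 1.10 and 0.961 FPKM in AngII hearts. Only AngII replicate 3 overlapped the vehicle range. The difference was -0.55 (SE 0.12; limma adjusted p = 0.0335). The call was lost in 7 of the 10 fits without 1 library, where the limma adjusted p ran up to 0.0843, and it held without AngII replicate 2, AngII replicate 3 or vehicle replicate 1. The difference lay between -0.65 and -0.49 in those 10 fits. The call was also lost with no filter, with only the 10 libraries compared, with the replicate block and without AngII replicate 2 and vehicle replicate 4 together (highest limma adjusted p = 0.112). Its relative Ppargc1a, which encodes PGC-1alpha, had a difference of -0.52 (SE 0.40; limma adjusted p = 0.541), with 62.7 FPKM in vehicle replicate 3 and 7.87 to 17.5 FPKM in the other vehicle hearts. The other 13 regulators did not pass, among them Esrra, Nrf1, Gabpa and Yy1, named because their motifs were searched above (limma adjusted p = 0.399, 0.813, 0.871 and 0.0905).

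Markers of other cell types were followed beside the members. In AngII against vehicle 3 of 7 fibroblast markers rose (Col1a2 by 1.44, Col3a1 by 1.62 and Col1a1 by 1.52) and 3 of 6 macrophage markers rose (C1qb by 0.88, C1qa by 0.79 and C1qc by 0.70; limma). Col1a2, Col3a1 and C1qb kept an adjusted p under 0.05 in each of the 10 fits without 1 library, while Col1a1 lost it in 6, C1qa in 7 and C1qc in 8. Under the 10 other settings C1qb kept it in each, Col1a2 lost it with the replicate block, Col1a1 and Col3a1 with no filter and with the replicate block, C1qa in 4 settings and C1qc in 6. The cardiomyocyte list had 0 of 10 called with a median of -0.14. The other marker lists had 0 called genes in that comparison, and all lists had 0 called genes in the comparisons with AngII plus OA. Their part in the member differences was not tested.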

How the data were processed

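Poly(A)-selected RNA of 15 ventricles was sequenced on the Illumina platform, per the labels' protocols. The authors deposited 1 table of FPKM per gene and library, and each column name matched a sample title. Per the submitters' processing notes the aligner was HISAT2 2.0.4 and the build mm8. How reads were counted, over which annotation, with which strand setting and by which FPKM program was not stated in the sources read. GENCODE M21 supplied the symbols (36464 of 36653 identifiers found) and lengths, and none of its coordinates are printed. The coordinates beside the promoter sequences are those of the RefSeq windows on GRCm38.p6, which is not the build in the submitters' notes.

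FPKM stepped in whole reads. With the summed exon length of the annotation, 86.6% of 28866 genes gave whole reads in every library within 0.02. The length came from that annotation for 31 members and from the values for 15. Library denominators were 24.5 to 28.3 M.

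Each gene was tested with limma (version 3.58.1, R 4.3.3) after adding a pseudocount of 1 to FPKM and taking log2. The prior variance followed a mean trend. The fit took all 15 libraries, with group as its single term, and the 13121 genes whose mean reached 0.5 FPKM; p-values were 2-sided and Benjamini-Hochberg adjusted within a comparison. Differences on this scale understate those of low genes. The labels call the 5 mice of a group biological replicates. The principal coding transcript was the best ranked APPRIS principal one.

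Named were called members, the 3 smallest p of each comparison, the 3 highest and 3 lowest by vehicle level, the highest of each role, Ndufs1, Ndufs4, Ndufv1, Ndufa4l2, Ndufab1 and Ndufaf1, and from each list up to 4 called genes or the 2 most abundant. One gene that this rule names is not reported here. Others named were chosen after their values were seen. The members and lists were chosen with earlier results of these data known. The script was tested on simulated data. Alternatives covered the pseudocount, the filter, 3 scalings, the libraries in the fit, array weights and a replicate block.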

Additional observations from a re-analysis of the deposited data

How the results depend on the processing

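No member was called in any of the 3 comparisons under any alternative or without any 1 library. Those alternatives were a pseudocount of 0.1, no filter, a mean of at least 5 FPKM (where Ndufb2 drops out), quantile normalization, a shift to 1 median, FPKM rescaled without mitochondrially encoded genes, only the 10 libraries compared, array weights, and AngII replicate 2 with vehicle replicate 4 left out, which was added after the data had been seen. The smallest adjusted p of a member (limma) then ranged from 0.141 to 0.575 in AngII against vehicle, from 0.411 to 0.992 in AngII plus OA against AngII and from 0.884 to 1.0 in AngII plus OA against vehicle. The median member difference of AngII against vehicle was -0.03 and ran from -0.16 with quantile normalization to 0.03 with array weights, the 1 such setting that turned its sign; leaving out 1 library gave -0.16 to 0.06. It ranged from 0.06 to 0.21 and from 0.01 to 0.19 without 1 library in the other comparisons, with no change of sign. For the mitochondrial share, leaving out 1 library gave differences of -7.74 to -4.29 percentage points for AngII against vehicle, -5.79 to -3.69 for AngII plus OA against vehicle, and -0.352 to 3.09 for AngII plus OA against AngII, where the negative value came without AngII replicate 4. Same-numbered libraries are not stated to be paired: the correlation of their deviations ran from -0.350 to 0.435 over 15 pairs, and 4 of 15 libraries correlated best with their own number. With the replicate block 0 members were called and the medians stayed at -0.03, 0.15 and 0.11, while the genes called in AngII against vehicle went from 197 to 38. The count of 197 lay between 49 (without AngII replicate 5) and 425 (without AngII replicate 3), and it was 72 with no filter, 109 with quantile normalization, 114 with rescaled FPKM, 70 with only the 10 libraries compared and 129 without both libraries. Ndufb2 rests on 76 to 172 reads per library.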
